A study of Homo sapiens with 6 samples.

Results

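The SR proteins and the heterogeneous nuclear ribonucleoproteins (hnRNPs) were followed in MM.1S cells transduced with an shRNA against KDM6B or, as the control, against luciferase. Members were all gene symbols in the count tables that begin with SRSF or HNRNP and continue with letters or digits, with processed pseudogenes left out. This gave 34 of 56637 symbols, 12 of them SRSF and 22 HNRNP, and 125 pseudogene symbols of the same pattern were left out. MM.1S is an established line from a human plasma cell cancer. Cells of both groups were infected with lentivirus and selected with puromycin, so they share the vector and the selection. There were 3 shKDM6B and 3 shLuc libraries, with 7952156 to 9848351 counts per shKDM6B library and 7338393 to 8996159 per shLuc library. The labels name 1 hairpin target per group, without a rescue or another KDM6B hairpin, so that depletion of KDM6B and other effects of the hairpins cannot be told apart. Nothing in the labels says whether replicates were transduced apart, so a p-value here reflects variation among libraries that could be purely technical.

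SR proteins carry RNA recognition motifs and a tail rich in arginine and serine. They bind exons in pre-mRNA, recruit the spliceosome to nearby splice sites and also take part in mRNA export and translation. The hnRNPs coat nascent transcripts, often repress the splice sites they bind, and act in RNA stability and transport. Many genes of both families control their own output by splicing in exons that send the transcript to nonsense-mediated decay. Plasma cells, which make large amounts of secreted immunoglobulin, also depend on regulated RNA processing for the switch from membrane-bound to secreted antibody.

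KDM6B, the hairpin's target, stood at 30.4, 32.3 and 35.1 CPM in shKDM6B replicates 1 to 3, against 56.2, 57.0 and 48.2 CPM in shLuc replicates 1 to 3. CPM here are counts scaled to library size after TMM normalization, which sets libraries on one scale by the genes they share. The groups did not overlap, and KDM6B fell by 0.71 on the log2 scale (SE 0.073, adjusted p = 7.72e-08, edgeR quasi-likelihood test). Of 12 plasma cell markers 11 had enough counts to be tested, SDC1 with 3986 to 4464 counts per library over both groups. CD27 had 1 to 8 counts, and the B cell marker CD22 had 0 counts in all libraries. At an edgeR adjusted p under 0.05, TNFRSF17 (log2 fold change -0.37) and CD38 (-0.45) were lower and PRDM1 (0.15) higher. These are 27.3% of the tested plasma cell markers, against 39.1% of all tested genes. Epithelial markers, 11 genes summed, had 35.0, 47.0 and 2.02 CPM in shKDM6B replicates 1 to 3 and 12.6, 3.16 and 3.31 CPM in shLuc replicates 1 to 3. These transcripts were thus unequal between libraries of each group, and results are also given without shKDM6B replicates 1 and 2 and shLuc replicate 1. Of the other marker lists, T cell markers summed to 5.14 to 6.56 CPM in shKDM6B and 8.10 to 10.2 CPM in shLuc, mostly CD3E, with CD3G at 0 counts. Monocyte markers (FCGR3A at 0) summed to 1.53 to 3.47 and 1.79 to 2.82 CPM, and fibroblast markers to 0.908 to 3.94 and 0.882 to 1.51 CPM, in shKDM6B and shLuc. Mature B cell markers, nearly all from CR2, summed to 84.0 to 99.3 and 92.7 to 99.4 CPM, and erythroid markers, nearly all HBB with HBA2 at 0, to 10.5 to 13.2 and 19.5 to 23.7 CPM. The part of these markers in the results below was not tested.

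No SR protein or hnRNP gene was called higher, and 7 were called lower by small amounts: SRSF5, SRSF8, SRSF11, HNRNPA1, HNRNPA2B1, HNRNPA3 and HNRNPH2. Their shKDM6B means were 83.5% to 91.3% of the shLuc means. Of the 34 members, 32 had enough counts to be tested. The 7 called are 21.9% of these 32, while 39.1% of all 13839 tested genes passed the same threshold, an adjusted p under 0.05. Split by direction, 7 members were lower and 0 higher, while 18.9% of all tested genes were lower and 20.1% higher. At an unadjusted p under 0.05 there were 10 members lower and 1 higher, against 23% and 23.8% of all tested genes. DESeq2 (27.6% of all genes called, 13.4% lower and 14.2% higher) called 6 members lower and 0 higher, and limma-voom (19% of all genes lower, 20.1% higher) called 7 lower and 0 higher. The log2 fold change was below 0 for 24 of the 32, against 51% of all tested genes. Its median was -0.081 over the members and -0.0053 over all tested genes, and every tested member changed by less than 1.2-fold. All 3 shKDM6B libraries lay below all 3 shLuc libraries for 8 members (25% of the 32), against 23.9% of all tested genes, and above them for 1 member, against 24.5% of all.

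**Figure D1:**
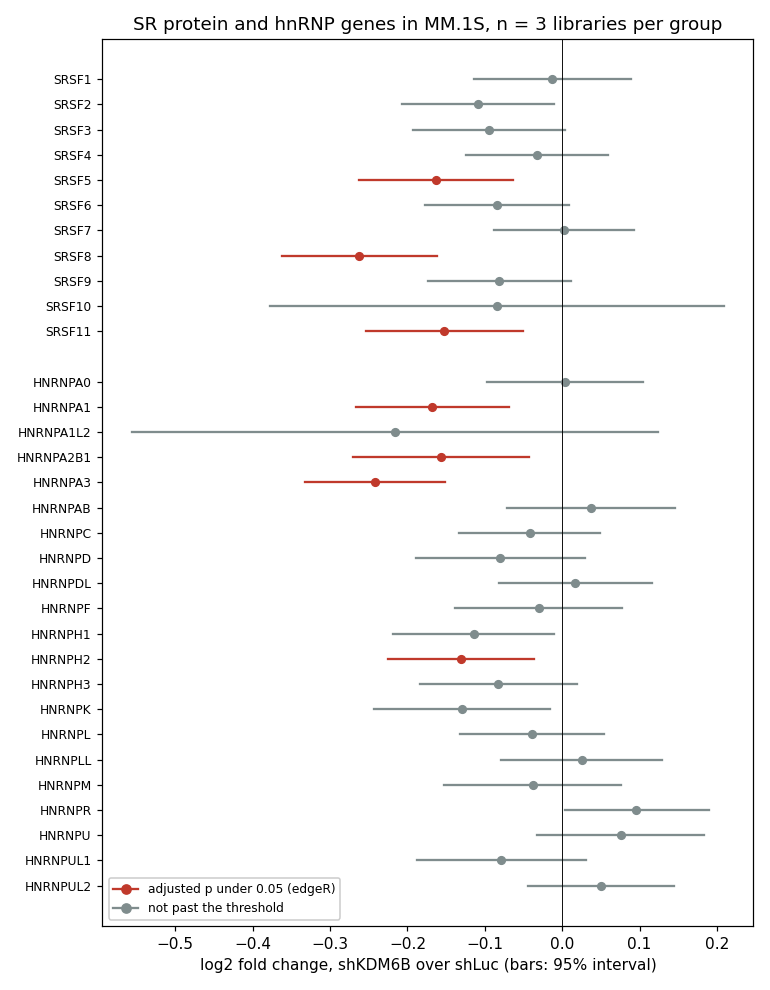
Log2 fold change, shKDM6B over shLuc, of the 32 tested members with the 95% interval of the edgeR fit, SRSF genes above and HNRNP genes below (n = 3 libraries per group). The 7 members past the threshold all lie left of 0, between -0.26 for SRSF8 and -0.13 for HNRNPH2, and the widest intervals belong to HNRNPA1L2 and SRSF10, which had few counts.

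HNRNPA3 and SRSF8 had the largest called falls and were the members called under every alternative processing tried. Their upstream promoter sequence is shown here with that of SRSF5, the called member whose window holds an ETS core (the element bound by ELK1 and related factors). Each run is the 250 bases before the RefSeq gene start on the gene's strand, 5′ to 3′, in GRCh38.p14: chr2:177212544-177212793 (plus strand) for HNRNPA3, chr11:95066627-95066876 (plus) for SRSF8 and chr14:69766892-69767141 (plus) for SRSF5. Capitals mark matches, on either strand, to 6 letter patterns: the GC box GGGCGG, the CCAAT box CCAAT, the ETS core CCGGAAG, the E box CACGTG, the NRF1 site and the CRE pattern TGACGTCA.
HNRNPA3: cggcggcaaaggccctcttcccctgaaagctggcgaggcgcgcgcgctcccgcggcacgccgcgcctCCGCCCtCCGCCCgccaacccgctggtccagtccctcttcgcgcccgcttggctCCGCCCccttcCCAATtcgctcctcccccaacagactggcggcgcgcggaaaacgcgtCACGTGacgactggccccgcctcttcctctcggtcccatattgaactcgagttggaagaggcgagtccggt
SRSF8: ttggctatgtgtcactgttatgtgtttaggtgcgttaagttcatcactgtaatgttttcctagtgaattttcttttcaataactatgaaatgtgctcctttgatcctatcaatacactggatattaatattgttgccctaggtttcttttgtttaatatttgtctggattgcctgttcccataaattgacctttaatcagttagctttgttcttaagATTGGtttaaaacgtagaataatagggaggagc
SRSF5: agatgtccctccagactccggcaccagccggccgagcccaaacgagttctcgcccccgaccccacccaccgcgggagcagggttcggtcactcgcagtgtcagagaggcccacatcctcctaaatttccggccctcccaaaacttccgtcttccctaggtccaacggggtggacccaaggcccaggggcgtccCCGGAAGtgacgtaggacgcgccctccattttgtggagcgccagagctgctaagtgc
The HNRNPA3 window holds 3 GC boxes, a CCAAT box and an E box, none overlapping another, and is 70.4% G and C with 34 CpG pairs. The SRSF8 window holds a single CCAAT box and is 33.6% G and C with 2 CpG pairs, the lowest G and C share among the members. The SRSF5 window holds the ETS core alone and is 64.8% G and C. The other members with an ETS core, HNRNPD, HNRNPF, HNRNPLL and SRSF4, were not called. Promoters were found for 30 of the 32 tested members, with a median of 65.2% G and C and 25 CpG pairs, against 58% and 11 CpG pairs over 27305 promoters of the same length. A GC box was in 19 of the 30 (63.3%, against 42.3% of all promoters) and a CCAAT box in 15 (50%, against 33.0%). An E box was in 6 (20%, against 6.49%), an ETS core in 5 (16.7%, against 8.815%), and the NRF1 site and the CRE pattern in 0, against 1.13% and 1.77%. Among the 6 called members with a promoter, 2 hold a GC box, 4 a CCAAT box, 2 an E box and 1 an ETS core, and SRSF11 holds none of the patterns. A match is a description of letters, not a bound site.

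Among the SR proteins, SRSF8 showed the largest fall. It is an intronless relative of SRSF2 with an arginine-serine tail. SRSF8 had 82.5, 90.8 and 84.6 CPM in shKDM6B replicates 1 to 3, against 100.2, 101.9 and 106.8 CPM in shLuc replicates 1 to 3. The highest shKDM6B value lay below the lowest shLuc value, and the mean was 83.5% of the control (log2 fold change -0.26, SE 0.048, edgeR adjusted p = 0.000146). SRSF5, a classical SR protein also called SRp40, had 161.1, 163.0 and 160.6 CPM in shKDM6B and 192.7, 167.4 and 183.5 CPM in shLuc replicates 1 to 3. Its shKDM6B libraries were close together and just below the lowest shLuc library (log2 fold change -0.16, SE 0.048, edgeR adjusted p = 0.00955). SRSF11, an SR-related nuclear protein that binds U2AF, had 270.8, 281.4 and 270.4 CPM in shKDM6B and 306.2, 284.4 and 323.5 CPM in shLuc replicates 1 to 3. These groups are separated by a narrow gap, between shKDM6B replicate 2 and shLuc replicate 2 (log2 fold change -0.15, SE 0.049, edgeR adjusted p = 0.0166).

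**Figure D2:**
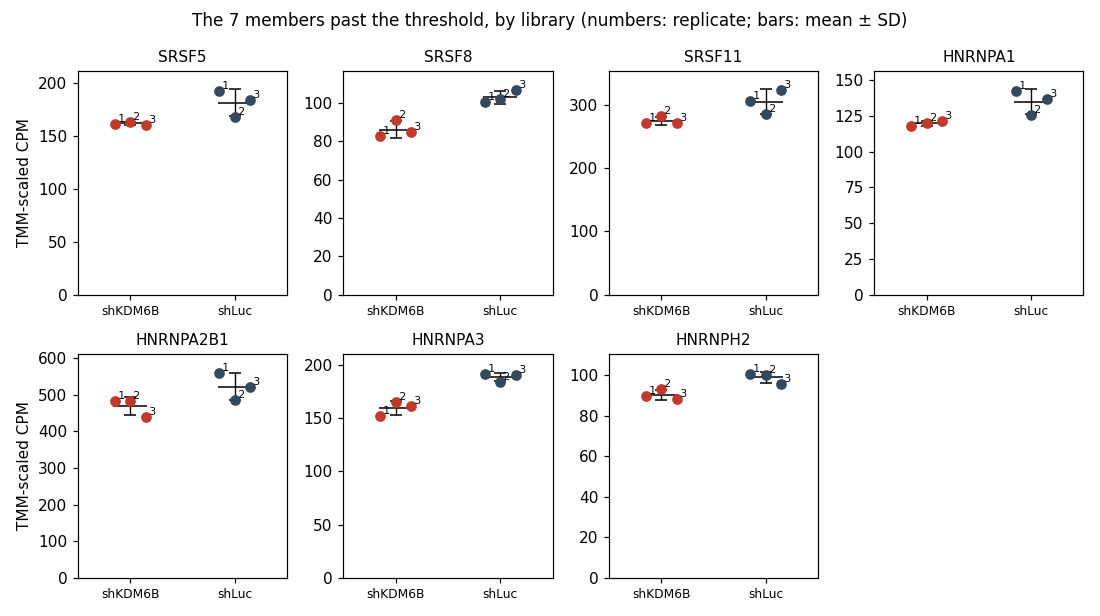
TMM-scaled CPM of the 7 members past the threshold in each library (points, with the replicate number) and the group mean with its SD (n = 3), shKDM6B left of shLuc, each axis starting at 0. For each gene the 3 shKDM6B points lie below the 3 shLuc points, with a gap that is widest relative to the spread for HNRNPA3 and SRSF8 and narrow for SRSF5, SRSF11 and HNRNPA2B1.

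The classical SR proteins were otherwise short of the threshold. SRSF1, a splicing activator and known proto-oncogene, averaged 263 ± 13 CPM in shKDM6B and 265 ± 13 CPM in shLuc (SD, n = 3 each), with a 95% interval of -0.11 to 0.089 on the log2 scale. SRSF7, which acts in export and 3′ end choice, had a log2 fold change of 0.0027 (95% interval -0.088 to 0.093). SRSF2, an SR protein whose gene is mutated in myeloid cancers, averaged 178 ± 6 CPM in shKDM6B and 193 ± 11 CPM in shLuc (SD, n = 3 each; log2 fold change -0.11, SE 0.047, edgeR adjusted p = 0.0721). SRSF3, which links splicing to export and termination, had 231.3, 230.0 and 216.7 CPM in shKDM6B and 256.6, 232.4 and 235.5 CPM in shLuc replicates 1 to 3. The SRSF3 groups did not overlap, but the change was short of the threshold (log2 fold change -0.095, SE 0.047, edgeR adjusted p = 0.119). SRSF6 (-0.085), SRSF9 (-0.082) and SRSF4 (-0.033) had log2 fold changes below 0 and overlapping groups. SRSF10, known for repressing splicing when dephosphorylated, was listed at only 63 to 87 counts in shKDM6B and 70 to 86 in shLuc libraries. Its 95% interval of -0.38 to 0.21 leaves changes of either sign possible at this depth. SRSF12, a related protein of restricted expression, had 1 count in shKDM6B and 0 in shLuc libraries and was not tested.

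Within the hnRNP A/B and D group, whose members mostly bind UAG- or AU-rich elements, 3 of 8 were called (37.5%), all of them lower. Of all tested genes 39.1% were called, 18.9% lower and 20.1% higher. HNRNPA3, a close relative of hnRNP A2, had 151.8, 165.1 and 161.1 CPM in shKDM6B and 191.1, 184.2 and 190.5 CPM in shLuc replicates 1 to 3. All shLuc libraries were above all shKDM6B libraries (log2 fold change -0.24, SE 0.044, edgeR adjusted p = 0.000125). HNRNPA1, a repressor of many exons, had 118.1, 120.1 and 121.8 CPM in shKDM6B and 142.7, 125.7 and 137.2 CPM in shLuc replicates 1 to 3. Its groups did not overlap, and shLuc replicate 2 was nearest to the shKDM6B values (log2 fold change -0.17, SE 0.048, edgeR adjusted p = 0.00719). HNRNPA2B1, which binds UAG-type motifs and has been described as a reader of RNA methylation, had 484.1, 482.6 and 440.3 CPM in shKDM6B and 560.5, 485.7 and 522.5 CPM in shLuc replicates 1 to 3. Here shKDM6B replicate 1 and shLuc replicate 2 were almost level (log2 fold change -0.16, SE 0.055, edgeR adjusted p = 0.0269). The other members of the group were not past the threshold. HNRNPA0, which stabilises AU-rich mRNAs, averaged 235.5 ± 13.6 CPM in shKDM6B and 234.8 ± 9.7 CPM in shLuc (SD, n = 3 each; 95% interval -0.097 to 0.10 on the log2 scale). HNRNPAB (0.037), HNRNPDL (0.017) and HNRNPD, also known as AUF1 (-0.080), likewise had intervals across 0. HNRNPA1L2, an intronless copy of HNRNPA1, had 43 to 58 counts in shKDM6B and 48 to 73 in shLuc libraries, with an interval of -0.56 to 0.12.

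Of the 4 hnRNP F/H genes, whose proteins bind runs of G, HNRNPH2 was called lower (25%). Of all tested genes 39.1% were called, 18.9% lower. All 4 had log2 fold changes below 0, against 51% of all tested genes. HNRNPH2 had 89.6, 93.0 and 88.1 CPM in shKDM6B and 100.5, 100.2 and 95.8 CPM in shLuc replicates 1 to 3. The groups were closest between shKDM6B replicate 2 and shLuc replicate 3 (log2 fold change -0.13, SE 0.045, edgeR adjusted p = 0.0255). HNRNPH1, its near relative, averaged 358 ± 13 CPM in shKDM6B and 387 ± 24 CPM in shLuc (SD, n = 3 each; log2 fold change -0.11, SE 0.050, edgeR adjusted p = 0.0766). HNRNPH3 (-0.083) and HNRNPF (-0.031) were also short of it. The HNRNPH2 call was lost with DESeq2 (adjusted p = 0.134) and without the filter on low counts (0.0639, edgeR), at nearly the same log2 fold changes of -0.135 and -0.129.

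Members of the remaining hnRNP groups did not pass, against 39.1% of all tested genes called. These were 3 tested hnRNP U genes and 6 tested genes of hnRNP C, K, L, M and R. HNRNPR, an RNA-binding relative of SYNCRIP, was the one member whose shKDM6B libraries all lay above the shLuc libraries, with 260.7, 261.0 and 240.6 CPM in shKDM6B and 239.9, 235.9 and 236.8 CPM in shLuc replicates 1 to 3. The gap between shKDM6B replicate 3 and shLuc replicate 1 was under 1 CPM (log2 fold change 0.096, SE 0.045, edgeR adjusted p = 0.0959). HNRNPK, a poly(C)-binding protein active in transcription and translation, averaged 256 ± 18 CPM in shKDM6B and 280 ± 19 CPM in shLuc (SD, n = 3 each; log2 fold change -0.13, SE 0.055, edgeR adjusted p = 0.0661). HNRNPU, a scaffold protein of the nuclear matrix that binds RNA and chromatin, averaged 479 ± 25 CPM in shKDM6B and 455 ± 26 CPM in shLuc (SD, n = 3 each; log2 fold change 0.076, SE 0.052, edgeR adjusted p = 0.268). Its relatives HNRNPUL1 (-0.079) and HNRNPUL2 (0.050) differed in sign, and both intervals crossed 0. HNRNPL, which binds CA repeats, and HNRNPLL, its paralog known as a regulator of CD45 splicing in T cells and of antibody secretion in plasma cells, had log2 fold changes of -0.039 and 0.025. HNRNPC, which binds runs of U and guards against inclusion of Alu exons, stood at -0.042 and HNRNPM at -0.038. HNRNPCL1, a copy of HNRNPC, had 2 counts in shKDM6B and 0 in shLuc libraries and was not tested. For the 23 members with at least 0.1 counts per base of exon that were not called, all 95% intervals lay between -0.243 and 0.189 on the log2 scale.

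The summed level of each family was slightly lower. Summed over the 12 SRSF genes the level was 1961, 1956 and 1872 CPM in shKDM6B and 2129, 1965 and 2068 CPM in shLuc replicates 1 to 3, and the shKDM6B mean was 93.9% of the shLuc mean, with a gap of a few CPM between the groups. Summed over the 22 HNRNP genes it was 5100, 5050 and 4672 CPM in shKDM6B and 5389, 4935 and 5032 CPM in shLuc replicates 1 to 3, or 96.5% of the control, with overlapping groups. The ratio of the SRSF to the HNRNP sum was 0.391 ± 0.009 in shKDM6B and 0.401 ± 0.008 in shLuc (SD, n = 3 each), and its groups overlapped as well.

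Levels between members spread widely per length of annotated exon. In CPM per kb of exon, HNRNPAB (105 ± 6 in shKDM6B and 102 ± 7 in shLuc; SD, n = 3 each) and HNRNPF (100.3 ± 6.6 and 102.4 ± 5.1) were highest and did not differ beyond their spread. SRSF1 followed at 78.7 ± 3.9 in shKDM6B and 79.4 ± 4.0 in shLuc. HNRNPUL1, HNRNPM and SRSF2 stood next, at 61.3, 61.2 and 59.1 in shKDM6B and 64.7, 62.9 and 63.8 in shLuc, also within their spread of each other. The other 24 tested members lay between 12.0 and 51.7 in shKDM6B. HNRNPA1L2 at 4.35 and SRSF10 at 0.830 CPM per kb in shKDM6B, against 5.04 and 0.884 in shLuc, were the lowest tested. The annotation behind the counts is not stated, and the SRSF10 value in particular depends on which reads it assigned to that gene. The lengths are unions of all annotated exons (GENCODE 29) and are long for genes with many annotated forms, such as HNRNPU with 22.5 kb, which lowers its value.

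**Figure D3:**
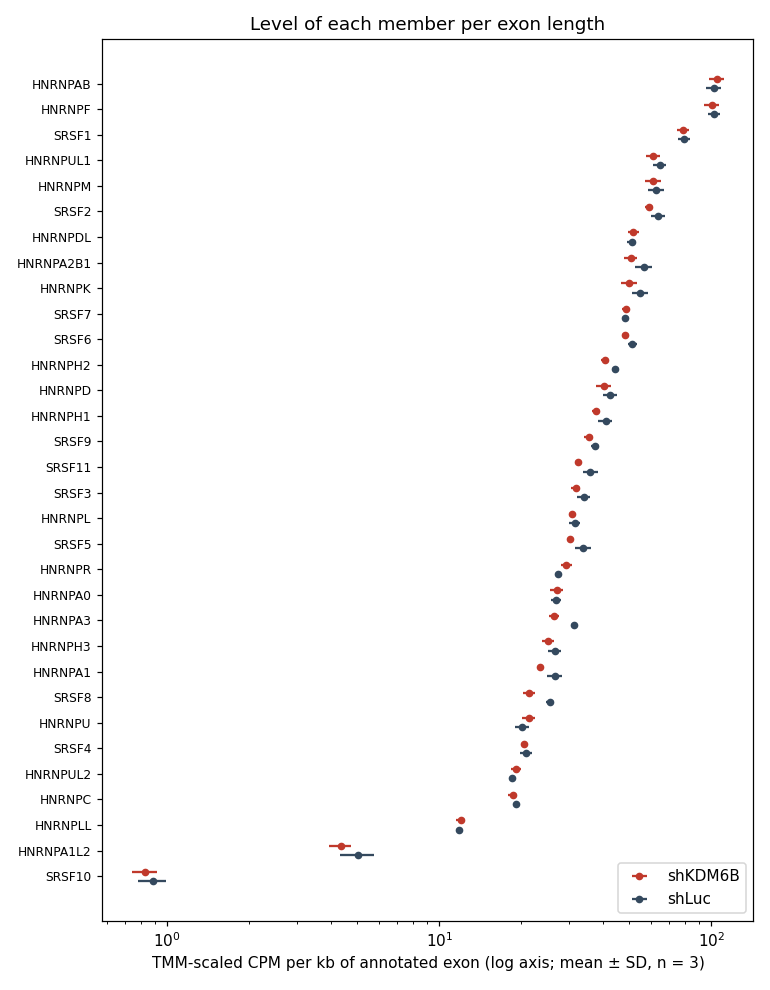
Level of each tested member as TMM-scaled CPM per kb of annotated exon on a log axis, mean ± SD of 3 libraries, shKDM6B (red) drawn above shLuc (dark blue). HNRNPAB and HNRNPF sit near 100, most members between 12.0 and 79.4, and HNRNPA1L2 and SRSF10 far to the left, and the groups of a gene lie much closer together than the genes do.

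Several of these levels rest on reads that other genes could share. Of the 50-base stretches in the longest coding transcript, 58.5% of those of HNRNPA1L2, 29.1% of HNRNPA1, 18.4% of HNRNPA3 and 10.9% of HNRNPC occur unchanged in other annotated transcripts, mainly pseudogenes and copies. The table lists 57 other genes for HNRNPA1 alone. The pseudogene symbols left out held 262 to 425 counts per library in all, the most by HNRNPA1P70 with 93, 84 and 94 counts in shKDM6B and 112, 123 and 166 in shLuc replicates 1 to 3. How multi-mapping reads were counted is not given in the sources used here, so the levels and changes of HNRNPA1, HNRNPA1L2 and HNRNPA3 are uncertain to that extent. For SRSF1, 59.0% of the stretches are shared, nearly all with AC015813.2, and for HNRNPL 32.3%, most with AC008982.1. Neither AC015813.2 nor AC008982.1 is a symbol in the count tables. Other members share exon sequence with a neighbour. SRSF9 overlaps GATC on the opposite strand over 46.2% of its exons, SRSF2 overlaps MFSD11 over 36.7%, HNRNPH2 shares 16.3% with the read-through gene RPL36A-HNRNPH2, listed at 0 counts, and HNRNPUL2 shares 44.1% with the read-through transcript HNRNPUL2-BSCL2. The library kit, as far as its name shows, does not mark strand, so reads in such overlaps cannot be told apart. SRSF8, SRSF11 and SRSF5 have 4.1%, 0.2% and 1.6% of their stretches elsewhere.

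The members are dense in reads, and such genes behaved differently with library size. Their median was 0.286 counts per base of exon, against 0.0851 over all tested genes, and 14.3% of tested genes with a length were at or above that median. Genes with 0.3 or more counts per base stood, by their median, 0.046 above their group's mean on the log2 scale in the shallowest shKDM6B library and fell by 0.057 below it in the deepest, replicate 3. In shLuc they stood 0.048 above it in replicate 1, the shallowest. Genes with under 0.03 counts per base ran the other way, with -0.040 and 0.059 in shKDM6B replicates 1 and 3 and -0.047 in shLuc replicate 1. Of the 30 members with at least 0.1 counts per base, 26 had their lowest shKDM6B value in replicate 3 and 24 their highest shLuc value in replicate 1, against 33.0% and 31.0% of all tested genes. Of all 6 libraries, shKDM6B replicate 3 is the deepest and shLuc replicate 1 the shallowest. Among all 5538 tested genes in the same range of counts per base, from 0.102 to 0.881, 42.2% were called, 18.1% lower and 24% higher. The part of library depth in the members' values was not tested.

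**Figure D4:**
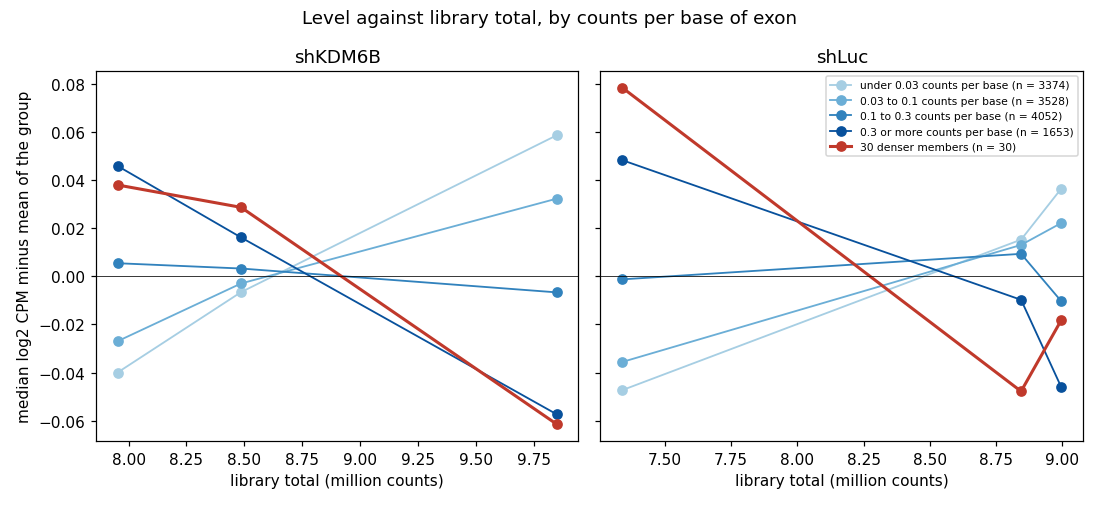
Median over genes of log2 CPM minus the group's mean, against the library total, for tested genes in 4 ranges of counts per base of exon and for the 30 denser members (red), shKDM6B left and shLuc right. Like the densest genes, the members lie above 0 in the shallowest library of each group and below 0 in the deepest shKDM6B library. Genes with few counts per base run the opposite way. In shLuc the members are lowest in replicate 2 (-0.048), but the densest genes in replicate 3 (-0.046), the deepest of that group.

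The number of members called differed between scalings. With TMM factors computed on the 3374 tested genes below 0.03 counts per base (sparse-gene scaling; 36.5% of all genes called), 2 members stayed lower, HNRNPA3 (log2 fold change -0.19, adjusted p = 0.025) and SRSF8 (-0.21, adjusted p = 0.00515), both by edgeR, against 13.7% of all genes lower and 22.8% higher, and 18 of 32 were below 0. The median of all genes then stood at 0.044 and that of the members at -0.031, since another scaling factor shifts all genes by nearly the same amount. With an offset per library fitted to counts per base, an alternative chosen after the data were seen, 15 members were lower and 1, HNRNPR, higher, against 46.3% of all genes called, 22.7% of all genes lower and 23.5% higher. The 15 included the 7 named above, with SRSF2, SRSF3, SRSF6, SRSF9, HNRNPD, HNRNPH1, HNRNPK and HNRNPUL1 in addition. Upper-quartile scaling gave 10 lower and 0 higher (39.2% of all genes called, 21% lower and 18.2% higher), adding HNRNPH1, HNRNPK and SRSF2. Log2 fold changes of most members moved little under the offset, with HNRNPA2B1 at -0.17 (SE 0.033, against 0.055 with TMM over all genes). Without shLuc replicate 1 there were 4 members lower, and SRSF5 (log2 fold change -0.12, adjusted p = 0.0551), HNRNPA2B1 (-0.11, 0.115) and HNRNPH2 (-0.12, 0.0672) were not past the threshold by edgeR. SRSF11 lost its call without shKDM6B replicate 1 (log2 fold change -0.14, adjusted p = 0.0579) or shLuc replicate 3 (-0.11, 0.122). HNRNPA2B1 lost it without shKDM6B replicate 3 (-0.11, 0.127) or shLuc replicate 3 (-0.16, 0.0534), and HNRNPH2 without shLuc replicate 2 (-0.12, 0.0867), shKDM6B replicate 1 (-0.125, 0.0644) or shKDM6B replicate 3 (-0.11, 0.109). Several of these changes were about as large as with all libraries, those of HNRNPA2B1 without shLuc replicate 3 and HNRNPH2 without shKDM6B replicate 1 among them. Without shKDM6B replicate 3, HNRNPR was called higher. With the 3 libraries that hold keratin counts left out, 8 members were lower and 0 higher (26.5% of all genes called, 12.5% lower and 14% higher), and HNRNPA1 (log2 fold change -0.11, adjusted p = 0.223), HNRNPH2 (-0.15, 0.109) and SRSF5 (-0.13, 0.0991) were not past the threshold. The HNRNPH2 change was no smaller there, and its SE was 0.072, against 0.045 with all libraries. HNRNPA3 and SRSF8 had log2 fold changes of -0.22 and -0.30 in that fit, where the lone shKDM6B library is assumed to vary like the others. That library is the deepest, and 26 of the 30 members with at least 0.1 counts per base had their lowest shKDM6B value in it.

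**Figure D5:**
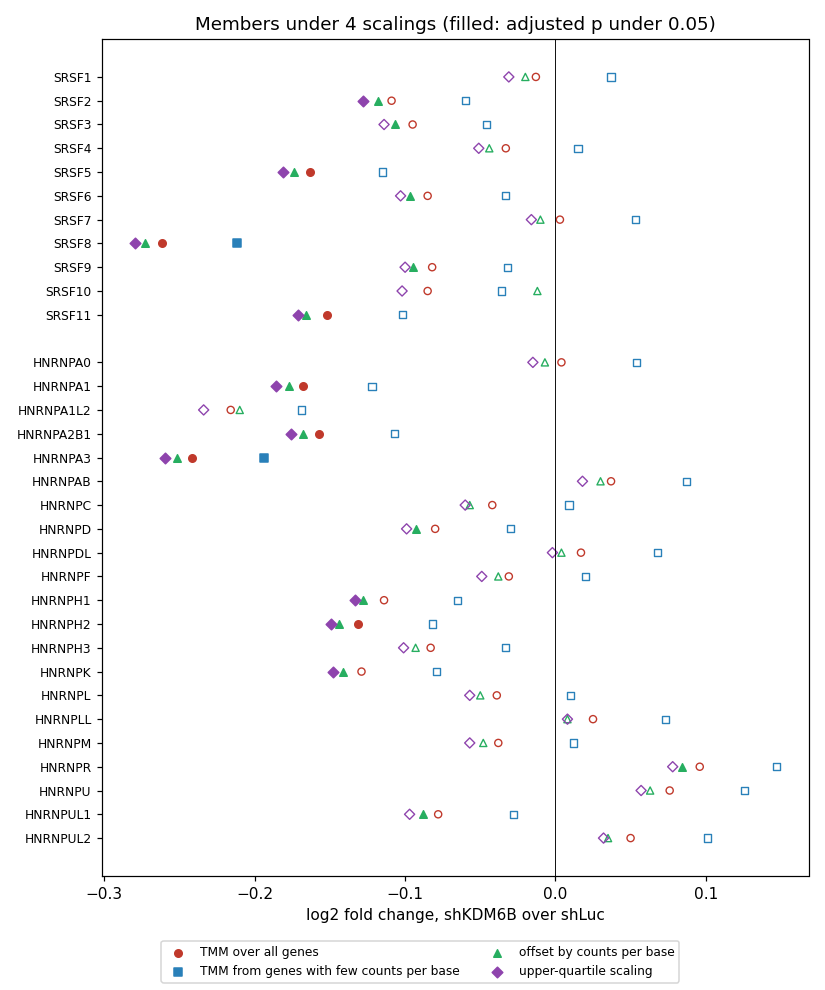
Log2 fold change, shKDM6B over shLuc, of each tested member under 4 scalings, filled where the edgeR adjusted p was under 0.05. Sparse-gene scaling (squares) shifts all members to the right and leaves SRSF8 and HNRNPA3 filled, whereas the offset by counts per base (triangles) moves most values little and fills 16.

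Enzymes and carriers that act on SR proteins gave 3 higher and 4 lower among 18 tested, 38.9% called, which is near the 39.1% of all tested genes. The 4 lower became 1 with sparse-gene scaling (13.7% of all genes lower) and 2 without shKDM6B replicate 3 (17.6%). CLK2, a kinase that phosphorylates SR proteins in the nucleus, averaged 172 ± 6 CPM in shKDM6B and 202 ± 9 CPM in shLuc (SD, n = 3 each; log2 fold change -0.23, SE 0.045, edgeR adjusted p = 0.000275). DYRK2, a related kinase, was lower (-0.17), though not with sparse-gene scaling (adjusted p = 0.123) or without shLuc replicate 3 (0.0550). TNPO3, the import receptor of phosphorylated SR proteins, was higher at 234 ± 5 CPM in shKDM6B, against 207.0 ± 0.3 CPM in shLuc (SD, n = 3 each; log2 fold change 0.18, SE 0.042, edgeR adjusted p = 0.00179). TNPO1, which imports hnRNP A1 and related proteins, was higher too (0.21). These 4 were named for the smallest p on the list, and no library of one group reached into the other for them. Of the 18, 5 had all shKDM6B libraries below all shLuc libraries and 4 above, against 23.9% and 24.5% of all tested genes.

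SR-related proteins, which carry arginine-serine stretches without being classical SR proteins, gave 9 lower and 1 higher among 33 tested, with a median of -0.064, against 18.9% lower and 20.1% higher over all tested genes. The 9 lower became 2 with sparse-gene scaling (13.7% of all genes lower), 15 with the offset by counts per base (22.7%) and 6 with DESeq2 (13.4%). They became 6 without shKDM6B replicate 1 (16%) or 3 (17.6%), and 5 without shLuc replicate 1 (17.9%) or 3 (17.4%). LUC7L3, a U1-associated protein, averaged 220 ± 3 CPM in shKDM6B and 281 ± 24 CPM in shLuc (SD, n = 3 each; log2 fold change -0.36, SE 0.052, edgeR adjusted p = 1.11e-05). SREK1 (-0.25) and SCAF4 (-0.19) were lower and SREK1IP1, a partner of SREK1, was higher (0.23). SCAF4 missed the threshold with sparse-gene scaling (adjusted p = 0.0869). Of the other hnRNP proteins, known under other symbols, 3 of 25 tested were higher and 4 lower, or 28% called against 39.1% of all tested genes. With the offset 7 were lower, against 22.7% of all genes. MSI2, a Musashi translation regulator, had the smallest p (-0.35, SE 0.046, edgeR adjusted p = 2.68e-06). Of the poly(C)-binding proteins listed, PCBP2 was lower at 160 ± 2 CPM in shKDM6B, against 194 ± 7 CPM in shLuc, and PCBP4 was higher at 66.5 ± 0.4 CPM in shKDM6B, against 52.0 ± 2.8 CPM in shLuc (SD, n = 3 each). PCBP1 did not pass (log2 fold change -0.050, edgeR adjusted p = 0.532), and PCBP3 had too few counts to be tested. TAF15, an RNA-binding protein, was lower (-0.25).

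Other splicing regulators held the largest changes among the splicing genes listed, with 3 of 33 tested higher and 7 lower, or 30.3% called against 39.1% of all tested genes. Sparse-gene scaling left 4 lower, against 13.7% of all genes lower. CELF1, which binds GU-rich elements in splicing and mRNA decay, had 306.6, 317.2 and 317.6 CPM in shKDM6B and 198.8, 192.6 and 201.2 CPM in shLuc replicates 1 to 3. The CELF1 groups are far apart (log2 fold change 0.67, SE 0.043, edgeR adjusted p = 6.86e-11). ESRP1, an epithelial splicing regulator, was lower at 15.8 ± 2.0 CPM in shKDM6B, against 27.2 ± 0.9 CPM in shLuc (SD, n = 3 each; log2 fold change -0.77). The epithelial markers summed higher in 2 of the 3 shKDM6B libraries. Of the 4 epithelial markers tested, 3 keratins had log2 fold changes above 0. EPCAM, at 5 to 20 counts per library, lay lower in all shKDM6B libraries but short of the threshold (log2 fold change -0.83, edgeR adjusted p = 0.068). RBM47 (-0.33) and RBM5 (-0.30), both RNA-binding splicing regulators, were lower. Spliceosome core genes passed in 6 of 45, 3 in each direction, or 13.3% against 39.1% of all tested genes. The 3 higher became 1 without shKDM6B replicate 1 (18.1% of all genes higher), shKDM6B replicate 2 (16.2%) or shLuc replicate 3 (17.8%). The 3 lower became 1 with sparse-gene scaling (13.7% of all genes lower) and 6 with the offset (22.7%). PRPF38A (-0.30) and PRPF3 (-0.18) were lower and SF3B3 (0.19) and EFTUD2 (0.15) higher. PRPF3 missed the threshold with sparse-gene scaling (edgeR adjusted p = 0.118). EFTUD2 missed the threshold without shLuc replicate 3 (edgeR adjusted p = 0.0566), shKDM6B replicate 1 (0.0624) or shKDM6B replicate 2 (0.0754). Without the 3 libraries highest in epithelial markers, the log2 fold change was -0.17 for PRPF3 and 0.073 for EFTUD2.

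Genes of nonsense-mediated decay, the pathway that degrades the unproductive SR and hnRNP isoforms, gave 5 higher and 1 lower among 19, with a median of 0.077, against 20.1% higher and 18.9% lower over all tested genes. The 1 lower became 0 with sparse-gene scaling (13.7% of all genes lower), with DESeq2 (13.4%) and without the filter on low counts. It also became 0 without shKDM6B replicate 2 (15.8%) or 3 (17.6%), or shLuc replicate 1 (17.9%) or 3 (17.4%). DHX34, a helicase of the pathway, averaged 129 ± 6 CPM in shKDM6B and 99.3 ± 2.3 CPM in shLuc (SD, n = 3 each; log2 fold change 0.37, SE 0.046, edgeR adjusted p = 9.48e-07). UPF3B (0.33), SMG9 (0.36) and UPF2 (0.16), which link the exon junction complex to UPF1 or regulate the kinase SMG1, were higher as well. Of the nuclear RNAs, MALAT1, which binds SR proteins in nuclear speckles, was lower (-0.24, edgeR adjusted p = 0.0033; 0.109 with sparse-gene scaling). NEAT1, the paraspeckle RNA, had a log2 fold change of 0.016 (SE 0.060, edgeR adjusted p = 0.865). The deposited values are counts per gene, so the splicing of the members' own regulatory exons was not measured here.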

How the data were processed

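RNA of MM.1S cells was sequenced in 3 shKDM6B and 3 shLuc libraries. The authors deposited raw counts per gene symbol for each library. STAR, featureCounts and DESeq with GRCh37 (hg19) are named in the submitters' processing notes, while their versions, the annotation and how strand, multi-mapping and duplicates were treated are not stated there. In each count table a single line that names no gene was left out, and the authors' normalized table was not used.

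The test was that of edgeR 4.0.16, run under R 4.3.3 (filterByExpr, TMM, quasi-likelihood test with group as the term, two-sided), with Benjamini-Hochberg adjustment over 13839 genes and a threshold of 0.05. The fit was checked on simulated data. Intervals are 95% intervals from that fit, and n is 3 per group throughout. Exon lengths (91.1% of tested genes) and shared stretches of 50 bases came from GENCODE 29. Promoters came from RefSeq.

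Within groups, pairs of libraries differed over genes of low read density by a chi-square per degree of freedom of 1.08 to 1.32. The largest p of this chi-square test was 0.00112. The excess over counting noise could be purely technical, so it does not show that the libraries are independent samples. Each library was counted as 1 sample. All members are accounted for, and each pathway list gives up to 4 genes past the threshold with the smallest p. NEAT1, PCBP1, PCBP3 and the pseudogene HNRNPA1P70 were named after their values were seen. So were the markers SDC1, CD27, TNFRSF17, CD38, PRDM1, CD22, CR2, CD3E, CD3G, FCGR3A, HBB, HBA2 and EPCAM. Alternatives were other scalings, filters, the replicate number as a block, DESeq2 1.42.0, limma-voom (limma 3.58.1), leaving out libraries and a threshold of 0.01. The members and lists were chosen with earlier results of these data known.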

Additional observations from a re-analysis of the deposited data

How the results depend on the processing

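Of the 32 tested members, 0 were called higher and 7 lower, 3 SRSF and 4 HNRNP. Sparse-gene scaling left 2 lower, 1 SRSF and 1 HNRNP. The offset by counts per base gave 15 lower, 7 SRSF and 8 HNRNP, and 1 HNRNP higher. An adjusted p under 0.01 left 4 lower, 2 of them HNRNP (13.4% of all genes lower). Leaving out single libraries gave 4 to 8 lower and 0 to 1 higher, with 2 to 4 HNRNP lower and 0 to 1 higher (15.8% to 17.9% of all genes lower, 16.2% to 18.3% higher). Of 175 tested genes in the 7 pathway lists together, 29 were lower and 18 higher (18.9% and 20.1% of all genes), against 11 and 19 with sparse-gene scaling (13.7% and 22.8%), 45 and 17 with the offset (22.7% and 23.5%) and 19 and 12 at 0.01 (13.4% and 14.7%). The cause was not tested.

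Same-numbered libraries of the groups deviated from their group means with correlations of 0.12, -0.077 and 0.15, so the numbers were not taken to pair them, and shKDM6B replicate 2 correlated better with shLuc replicate 1 than with its own number. With the replicate block (44.9% of all genes called, 22.1% lower and 22.9% higher) 14 members were lower, 6 SRSF and 8 HNRNP, and 1 HNRNP higher. HNRNPA1L2 and SRSF10 had few counts and the widest intervals, and SRSF12 and HNRNPCL1 too few to test.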
